A study of Mus musculus with 12 samples.

Results

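Across 12 RNA sequencing libraries of mouse nasal tissue, 8 of the 55487 rows of the count table were followed. Each is the row of, or lies opposite, a gene of neutrophils, monocytes, macrophages or mast cells. Gm11505, Gm30489 and BE692007 lie on the strand opposite to Mpo, F13a1 and Ms4a6c, and Mmp9, Il1b, Hdc, Cd300lf and Vsir are the own rows of those genes. The 8 were chosen with their values over the 3 groups in view, so their own levels and differences are given as a description. Where calls of the model on these rows are given, also under other settings, they are part of that description and no test. All 8 passed the filter on low counts, which left 13181 rows for testing.

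The study exposed C57BL/6 male mice of 6 weeks to KDP20, a diesel particle material, and sequenced nasal RNA to ask how gene expression changes in nasal inflammation. There were 4 libraries from PBS vehicle mice (day 10), 4 from KDP20 mice at day 5 and 4 from KDP20 mice at day 10, and every library carried the cell type label of nasal epithelium. The dose, the route and the number of exposures were not stated in the labels. Nor do the labels tie each library to its own animal, so the p-values speak of the spread among these libraries, which may be technical. Vehicle was labelled day 10 alone, so in day 5 against vehicle the exposure and the day differ together, and all 3 comparisons share samples.

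Neutrophils and monocytes are made in the bone marrow and enter the airway lining when it is irritated, whereas macrophages and mast cells also reside there. Mpo encodes the peroxidase of neutrophil granules, F13a1 a transglutaminase subunit of clotting factor XIII carried by monocytes and resident macrophages, and Ms4a6c a membrane protein of monocytes and macrophages. Mmp9 is a gelatinase of neutrophil granules that is also made by other cells, Il1b a cytokine of activated myeloid cells, Hdc the enzyme that makes histamine, Cd300lf an inhibitory lipid-binding receptor of myeloid cells, and Vsir the checkpoint protein VISTA.

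The coordinates below are on GRCm38, the build named mm10 in the submitters' processing notes, with gene models of GENCODE M21. Gm11505 lies at chr11:87795784-87801144 on the minus strand, inside Mpo, and 512 of its 737 exonic bases (69.5%) overlap coding exons of Mpo. Gm30489 lies at chr13:36963239-36973329 on the plus strand, inside F13a1, and 74 of its 1746 exonic bases (4.24%) overlap F13a1 exons, 14 of them coding. BE692007 lies at chr19:11470166-11484578 on the minus strand, and 1088 of its 5236 exonic bases (20.8%) overlap Ms4a6c exons, 105 of them coding. The coding bases below lie in both genes of a pair, so the strand setting of the counting decides which row a read there is given to. They are written 5′ to 3′ on the strand of Mpo (exon 7, chr11:87796230-87796436), F13a1 (exon 5, chr13:36972053-36972066) and Ms4a6c (exon 6, chr19:11480299-11480399), in lower case with nothing marked.
Mpo: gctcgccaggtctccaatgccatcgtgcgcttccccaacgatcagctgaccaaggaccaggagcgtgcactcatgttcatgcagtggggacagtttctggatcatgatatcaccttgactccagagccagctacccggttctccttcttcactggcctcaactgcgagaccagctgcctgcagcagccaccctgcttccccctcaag
F13a1: aggacgctgtgtat
Ms4a6c: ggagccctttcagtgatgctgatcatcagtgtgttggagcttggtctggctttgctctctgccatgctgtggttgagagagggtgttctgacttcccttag

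Within each pair nearly all counts were in the opposite row. Over the 12 libraries Gm11505 held 264 counts and Mpo 5, a share of 98.1% for the opposite row (95% exact interval 95.7 to 99.4). Gm30489 held 1200 counts and F13a1 25, a share of 98.0% (97.0 to 98.7). BE692007 held 2071 counts and Ms4a6c 77, a share of 96.4% (95.5 to 97.2). No source used here gives the strand setting of the counting, so neither an opposite row nor an own row need report the mRNA of the gene it is named for. These intervals cover counting error alone. The shares compare whole rows, although partner exons overlap 69.5% of the exonic bases of Gm11505, 4.24% of Gm30489 and 20.8% of BE692007. Most bases of Gm30489 and BE692007 thus lie outside exons of the partner.

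The 5 own rows had other surroundings. Mmp9 (chr2:164940780-164955850, plus strand) and Hdc (chr2:126593667-126619299, minus strand) overlap no annotated gene on the other strand. Il1b (chr2:129364570-129371139, minus strand) shares 25 exonic bases with the antisense gene Il1bos, whose row held 33 counts. Cd300lf (chr11:115116214-115133992, minus strand) lies inside Rab37, which held 79 counts, and Vsir (chr10:60346851-60372684, plus strand) inside Cdh23, which held 1010, in both cases with no shared exon. Cdh23 passed no test, with log2 fold changes of 0.27 at day 5 against vehicle (edgeR adjusted p 0.614), -0.12 at day 10 against vehicle (0.797) and -0.39 at day 10 against day 5 (0.318).

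Libraries differed in more than the exposure. Depth ran from 1658420 to 3227138 counts. The row CT010467.2 took 7.25% to 10.1% of counts in vehicle libraries, 9.69% to 12.6% at day 5, 11.2% in day 10 replicate 1 and 17.9% to 25.5% in day 10 replicates 2, 3 and 5. The slope of log2 CPM on GC content ran from -0.141 to -0.0270 per 10 points over vehicle and day 5, while day 10 replicate 1 had -0.0477 and the remaining 3 of that group had 0.192 to 0.351. The first principal component, 26.5% of the variance, set those 3 libraries apart, so the day 10 differences of the 8 rows, and of the other rows called below, are also given without them. The 4 rows opposite skeletal muscle genes summed to 21.2 to 206 CPM for vehicle, 26.6 to 1851 at day 5 and 37.7 to 1112 at day 10, and the part of muscle RNA in the values below was not tested.

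A row was called when its adjusted p in the edgeR model was under 0.05. At day 10 against day 5 the model called 7 of the 8 rows, where it called 10.1% of all tested rows, with 4 of them higher (all rows 4.66%) and 3 lower (all rows 5.49%). At day 10 against vehicle it called 5 of 8 (all rows 7.08%), 2 higher (3.93%) and 3 lower (3.15%), and at day 5 against vehicle 2 of 8 (0.66%), 0 higher (0.41%) and 2 lower (0.25%). The 2 groups did not overlap for 6 of 8 rows at day 10 against day 5 (all rows 12.5%), for 2 at day 10 against vehicle (9.98%) and for 2 at day 5 against vehicle (11.7%). Since the rows were chosen on these contrasts, nothing is read from those counts. The median log2 fold change of the 8 was 0.37, -0.06 and -0.12 in the same order, beside 0.01, -0.01 and -0.03 over all tested rows.

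**Figure D1:**
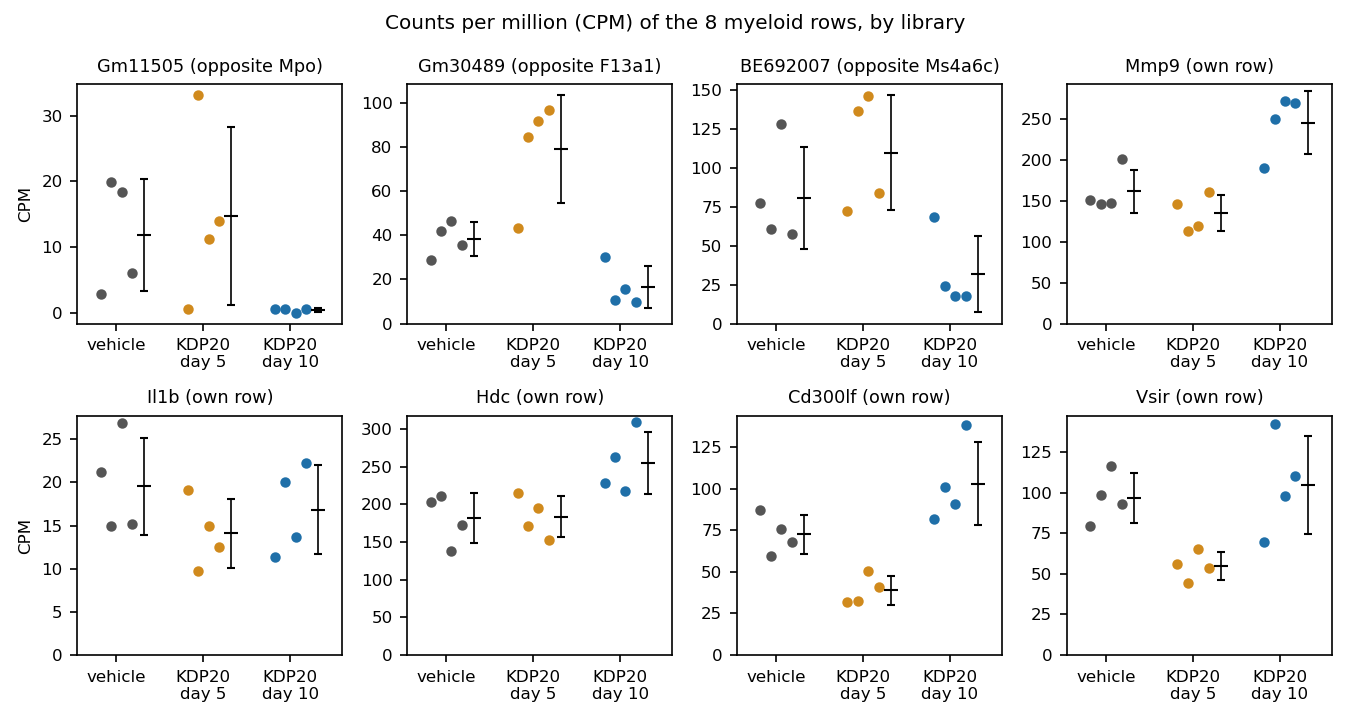
CPM (scaled counts) of each row in each of the 12 libraries, with the group mean and SD (n = 4) to the right of the points. The rows opposite Mpo, F13a1 and Ms4a6c are low at day 10, while Cd300lf and Vsir are low at day 5 and Mmp9 is high at day 10.

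The row opposite Mpo was almost empty at day 10. Gm11505 had 7, 44, 66 and 12 counts in vehicle replicates 2, 6, 4 and 5, 1, 78, 24 and 29 in day 5 replicates 8, 5, 7 and 6, and 1, 1, 0 and 1 in day 10 replicates 1, 3, 2 and 5. Every vehicle library lay above every day 10 library, and day 5 replicate 8 was as low as those at day 10. Scaled to library size, the vehicle sum of 129 counts was 28.5 times the day 10 sum of 3 counts (95% counting interval 9.55 to 140), and the day 5 sum of 132 was 34.7 times it (11.6 to 170). Both intervals pool the libraries of a group and cover counting error alone. They leave out the spread among libraries and are too narrow for a ratio of groups. In CPM, the counts scaled to a common library size, the means were 11.8 ± 8.61 for vehicle, 14.7 ± 13.6 at day 5 and 0.428 ± 0.289 at day 10 (SD, n = 4). The fitted log2 fold change was -4.59 (SE 0.99) at day 10 against vehicle, -4.89 (SE 0.97) against day 5 and 0.30 (SE 0.57) at day 5 against vehicle. With so few counts the fitted values rest on the prior count and are no bound. Day 10 replicate 1 alone, the library with the CT010467.2 share nearest to the other groups, gave -4.41 against vehicle and -4.72 against day 5.

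The row opposite F13a1 was high at day 5 and low at day 10. Gm30489 had 29.0, 42.1, 46.7 and 35.5 CPM in vehicle replicates 2, 6, 4 and 5, 43.3, 84.5, 92.0 and 97.2 in day 5 replicates 8, 5, 7 and 6, and 30.4, 10.7, 15.8 and 9.7 in day 10 replicates 1, 3, 2 and 5. In 3 day 5 libraries the row lay above all vehicle libraries and day 5 replicate 8 lay among them, while 3 day 10 libraries lay below all vehicle libraries and replicate 1 lay among them. No day 10 library reached the level of any day 5 library. The log2 fold change was 1.04 (SE 0.26) at day 5 against vehicle, -1.19 (SE 0.30) at day 10 against vehicle and -2.23 (SE 0.29) at day 10 against day 5. Without day 10 replicates 2, 3 and 5 the last 2 values were -0.34 and -1.39. The day 5 difference was 0.93 to 1.25 when 1 library was left out at a time, and it was called in 8 of 20 alternatives but not in the reported model.

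The row opposite Ms4a6c followed the same order with a wider spread. BE692007 had 77.2, 60.7, 128 and 57.3 CPM in vehicle replicates 2, 6, 4 and 5, 72.0, 136, 146 and 84.2 in day 5 replicates 8, 5, 7 and 6, and 68.4, 23.9, 17.9 and 17.7 in day 10 replicates 1, 3, 2 and 5. Vehicle and day 5 overlapped, day 10 replicate 1 lay inside the vehicle range, and the other 3 day 10 libraries were lower than every other library. Day 10 against vehicle differed by -1.32 (SE 0.34) on the log2 scale, and day 10 against day 5 by -1.75 (SE 0.34). Without day 10 replicates 2, 3 and 5 these were -0.26 and -0.69, and in a model that also held the CT010467.2 share the first turned to 0.11. Rows within 2.5 GC points of BE692007, at 37.1% GC, had a median of -0.45 at day 10 against vehicle, and rows near Gm30489, at 42.6% GC, one of -0.31. Gm11505, at 57.1% GC, was low where rows of like GC had a median of 0.21. With the GC correction of each library, day 10 against vehicle was -0.94 for BE692007, -0.92 for Gm30489 and -4.74 for Gm11505, and the first 2 were no longer called, while day 10 against day 5 was -1.46, -2.03 and -5.04, all called.

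Mmp9 showed the reverse order of the groups. It had 151, 146, 147 and 200.5 CPM in vehicle replicates 2, 6, 4 and 5, 146, 113, 119.6 and 161 in day 5 replicates 8, 5, 7 and 6, and 190.3, 249.8, 272 and 269.6 in day 10 replicates 1, 3, 2 and 5. Day 10 lay above day 5 in every library, and its lowest library, replicate 1, lay below the highest vehicle library. On the log2 scale the difference was 0.61 (SE 0.15) at day 10 against vehicle, 0.86 (SE 0.15) against day 5 and -0.26 (SE 0.15) at day 5 against vehicle. The first 2 were 0.24 and 0.50 without day 10 replicates 2, 3 and 5. Rows of like GC content had a median of 0.16 at day 10 against vehicle, and with the GC correction Mmp9 was 0.46, no longer called.

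Cd300lf and Vsir were the rows that stood lower at day 5 than in any vehicle library. Cd300lf had 87.1, 59.3, 75.5 and 68.0 CPM in vehicle replicates 2, 6, 4 and 5, 31.7, 32.7, 50.4 and 40.9 in day 5 replicates 8, 5, 7 and 6, and 81.8, 101, 90.6 and 138 in day 10 replicates 1, 3, 2 and 5. Its day 5 libraries lay below all 8 others, and vehicle overlapped day 10 only at its highest library. The log2 fold change was -0.90 (SE 0.19) at day 5 against vehicle, 0.50 (SE 0.18) at day 10 against vehicle and 1.40 (SE 0.19) at day 10 against day 5. Without day 10 replicates 2, 3 and 5 the last 2 values were 0.17 and 1.07.

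Vsir had 79.7, 98.7, 116 and 92.9 CPM in vehicle replicates 2, 6, 4 and 5, 55.9, 44.6, 65.4 and 53.4 in day 5 replicates 8, 5, 7 and 6, and 69.4, 142, 98.2 and 110.2 in day 10 replicates 1, 3, 2 and 5. All day 5 libraries again lay below the other 8, whereas day 10 spanned the whole vehicle range. The log2 difference was -0.83 (SE 0.19) at day 5 against vehicle, 0.11 (SE 0.18) at day 10 against vehicle and 0.94 (SE 0.19) at day 10 against day 5. The last 2 values were -0.48 and 0.34 without day 10 replicates 2, 3 and 5, so the sign against vehicle turned. For both rows the day 5 difference had the same sign in all 20 alternatives, from -1.04 to -0.79 for Cd300lf and from -0.97 to -0.71 for Vsir. It was called in 12 and 13 of them, and in 2 of the 8 that leave out 1 library.

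The promoters of Cd300lf and Vsir are shown because these rows were the pair that was low at day 5. They are the 250 bases before the RefSeq start on GRCm38.p6, at chr11:115133993-115134242 (minus strand) and chr10:60346601-60346850 (plus strand). Capitals mark matches to the motifs searched on both strands, namely GAGGAA (the core of the myeloid factor PU.1), TGANTCA (AP-1), TTGCNNAA (C/EBP), the NF-kB consensus, TNGCGTG (the aryl hydrocarbon receptor with ARNT) and GGAAGTG (ETS family).
Cd300lf promoter: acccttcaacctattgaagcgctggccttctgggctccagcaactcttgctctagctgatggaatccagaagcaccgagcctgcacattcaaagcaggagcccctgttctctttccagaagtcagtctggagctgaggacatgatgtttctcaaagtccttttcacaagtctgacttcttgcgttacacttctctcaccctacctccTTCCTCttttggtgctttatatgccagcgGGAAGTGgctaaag
Vsir promoter: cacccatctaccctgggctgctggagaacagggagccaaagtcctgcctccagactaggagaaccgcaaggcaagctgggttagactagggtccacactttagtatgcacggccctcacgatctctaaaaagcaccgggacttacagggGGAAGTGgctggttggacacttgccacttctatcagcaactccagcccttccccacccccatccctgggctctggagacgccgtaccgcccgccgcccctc

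Both promoters hold GGAAGTG, 14 bases before the start of Cd300lf and 101 before that of Vsir, a motif added after the sequences were seen and present in 8.55% of 32851 promoters. It lies in the longest run the pair shares, 11 bases found in 31 promoters (0.0944%). That run was picked from these sequences, so its rarity does not measure how unusual the sharing is. Cd300lf also has the PU.1 core on the reverse strand, 43 bases before the start, which 23.3% of promoters hold. The promoters of Il1b and Hdc held no match to the 6 motifs. A match is a description of letters and not of a binding site.

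Hdc was higher at day 10 than in any vehicle library. It had 203, 211, 138 and 173 CPM in vehicle replicates 2, 6, 4 and 5, 215, 172, 195 and 153 in day 5 replicates 8, 5, 7 and 6, and 229, 263, 218 and 309 in day 10 replicates 1, 3, 2 and 5. Vehicle and day 5 overlapped and the 4 day 10 libraries lay above both. The log2 fold change was 0.49 (SE 0.15) at day 10 against vehicle, 0.47 (SE 0.15) against day 5 and 0.02 (SE 0.15) at day 5 against vehicle. The first 2 were 0.34 and 0.32 without day 10 replicates 2, 3 and 5, and the difference from vehicle was called in 1 of the 8 fits that leave out 1 library.

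Il1b was low in all groups and did not separate them. It had 21.2, 14.9, 26.8 and 15.2 CPM in vehicle replicates 2, 6, 4 and 5, 19.1, 9.8, 14.9 and 12.5 in day 5 replicates 8, 5, 7 and 6, and 11.3, 20.1, 13.7 and 22.3 in day 10 replicates 1, 3, 2 and 5. The 3 ranges overlapped, and the counts behind them ran from 20 to 96 per library. Differences on the log2 scale were -0.50 (SE 0.29) at day 5 against vehicle, -0.23 (SE 0.29) at day 10 against vehicle and 0.26 (SE 0.30) at day 10 against day 5. Without day 10 replicates 2, 3 and 5 the last 2 values were -0.80 and -0.31, the second with its sign turned.

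**Figure D2:**
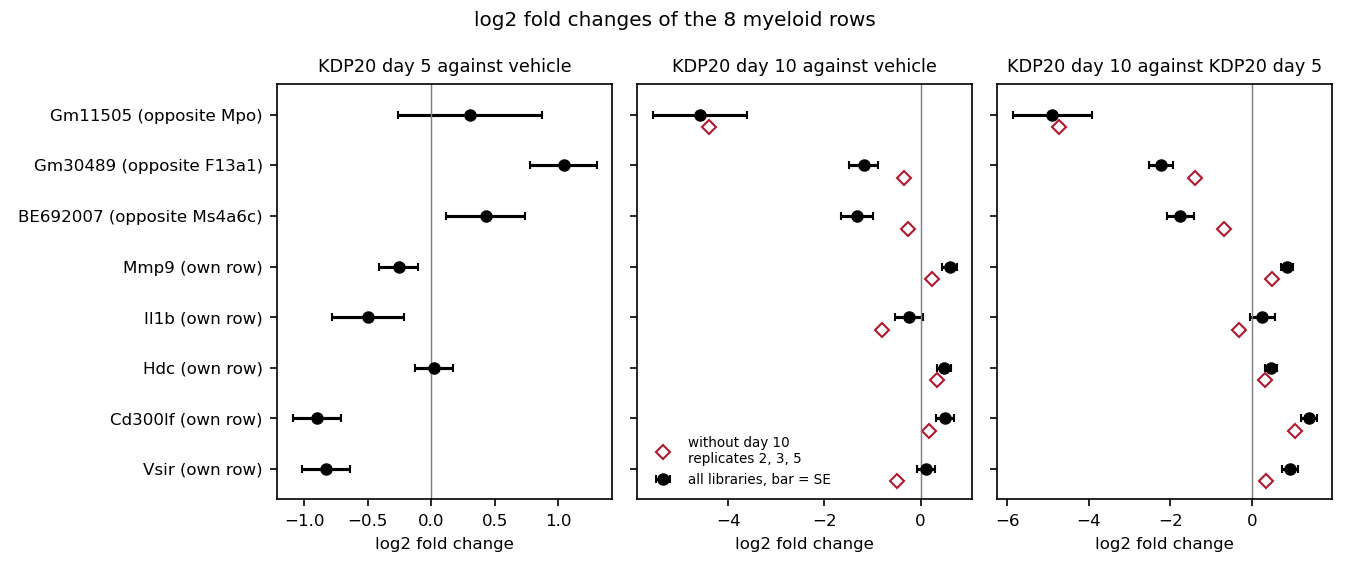
Log2 fold change of each row in the 3 comparisons, with its SE as a bar, and open diamonds for the value without day 10 replicates 2, 3 and 5. The diamond of the row opposite Mpo stays at -4.41 against vehicle, whereas those of the rows opposite F13a1 and Ms4a6c lie at -0.34 and -0.26.

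Per kilobase of exon, the rows could be set beside each other by level. For vehicle, Mmp9 stood highest at 45.6 CPM per kb, followed by Hdc at 28.4, Gm30489 at 22.0, Vsir at 19.3, Gm11505 at 16.1, BE692007 at 15.4, Cd300lf at 14.1 and Il1b at 10.3. At day 5 Gm30489 led with 45.4 and Mmp9 had 38.2, while Cd300lf and Il1b were lowest at 7.56 and 7.39. At day 10 Mmp9 had 69.3 and Hdc 39.9, Gm30489 had 9.53, BE692007 6.10 and Gm11505 0.581. From Gm30489 down to Cd300lf, each vehicle mean differed from the next by less than the larger SD of the pair. In tissue RNA, fewer cells of a type and less RNA per cell cannot be told apart.

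Over the 12 libraries the correlations between rows differed in how far they outlasted the group means. The rows opposite F13a1 and Ms4a6c had a Pearson correlation of log2 CPM of 0.902, and 0.731 after the group means were removed. BE692007 and Mmp9 had one of -0.943, and -0.822 after that step, and Gm30489 and Mmp9 -0.883 and -0.51. Gm11505 was less close, with 0.745 and 0.37 for BE692007, 0.773 and 0.57 for Gm30489, and -0.754 and -0.38 for Mmp9. Cd300lf and Vsir had 0.824, and 0.393 without the group means. These points share depth, the CT010467.2 share and the GC slope of each library, and are a description.

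**Figure D3:**
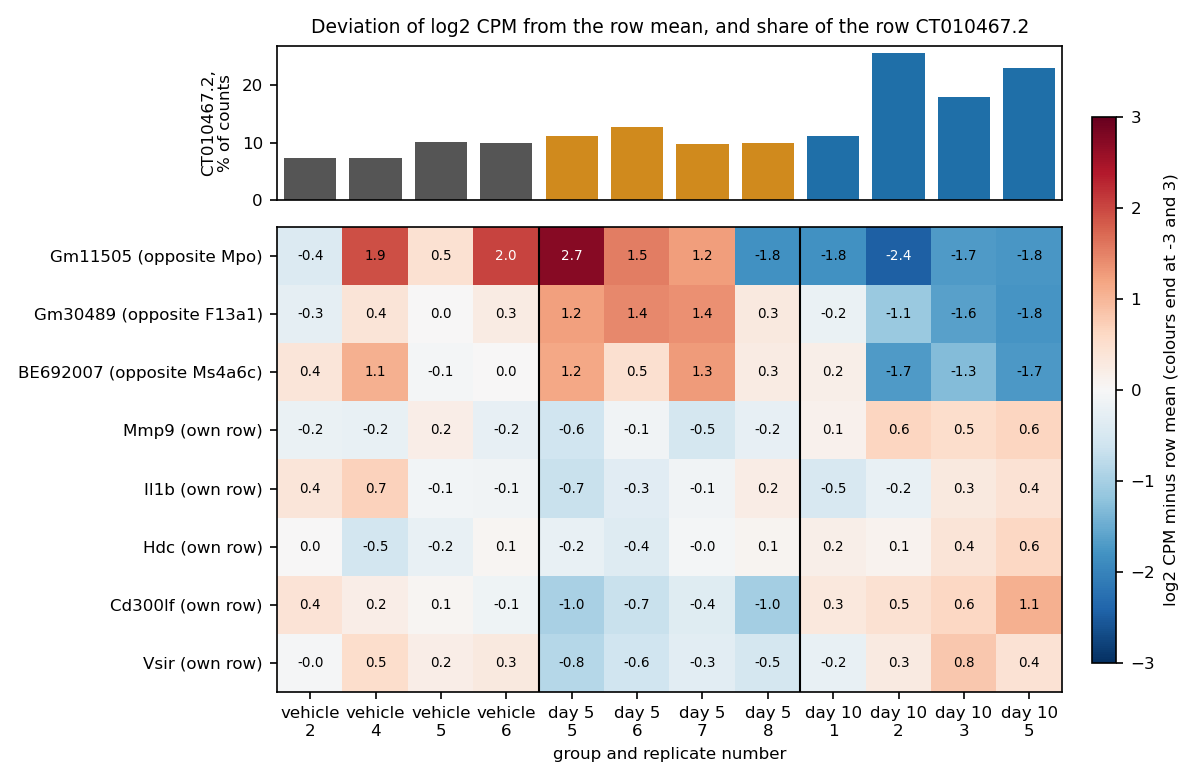
Bars give the share of counts in the row CT010467.2 per library, and the grid gives each row's log2 CPM minus its mean over the 12 libraries. Day 10 replicates 2, 3 and 5, with shares of 17.9% to 25.5%, are low in the 3 opposite rows and high in Mmp9, and the row opposite Mpo is also low in day 10 replicate 1 and day 5 replicate 8.

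None of the tested rows nearest in pattern was in the myeloid lists. For Gm11505 they were Prrg4 (Pearson correlation 0.938), Capn7 (opposite Sh3bp5, 0.908) and Gm37127 (0.897). For Gm30489 they were Gm26633 (0.955), Pyroxd1 (opposite Recql, 0.949) and Gm47566 (0.944), the last opposite Gm47567 and the immune proton-sensing receptor Gpr65. For BE692007 they were Ubxn11 (opposite Sh3bgrl3, 0.963), Emc9 (0.956) and 6330537M06Rik (0.945), the last opposite Ifi30, a lysosomal reductase of antigen-presenting cells. Mmp9 was nearest to Rnh1 (0.969), Lrg1 (0.961), which encodes a glycoprotein also stored in neutrophil granules, and Matk (0.958). Il1b was nearest to Chil5 (opposite Gm42722, 0.915), Ccdc91 (opposite Gm6288, 0.880) and Lpl (0.873), and Hdc to Grip1 (0.914), B230110C06Rik (opposite Lrrc3b, 0.891) and Gm15918 (opposite Xkr6, 0.876). Cd300lf was nearest to Gm18986 (0.942), Zxdc (0.937) and Akr1b3 (0.932), and Vsir to Fhad1os1 (0.940), Cpne9 (0.923) and Mob2 (0.923).

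Markers of these cell types ranged from absent to well counted in their own rows, and 5 of 23 neutrophil, 8 of 26 macrophage and 4 of 19 mast cell and basophil genes passed the filter. Of 23 neutrophil genes, 6 were at 0 in all libraries, among them S100a8, Cxcr2 and Ly6g, and Elane summed to 2 counts and S100a9 to 3. The granule genes Ltf and Prtn3 summed to 3719 and 356, and the row of Prtn3 lies opposite Plppr3. Of 19 mast cell and basophil genes, 9 were at 0, among them Ms4a2, Mcpt4 and Tpsab1, while Cpa3 summed to 42 and Kit to 32. Among macrophage genes Adgre1 summed to 4, Mrc1 to 7 and C1qa to 9, against 5269 for Csf1r, 1791 for Folr2, 1028 for Cd163, 394 for Cd14 and 353 for Cd68. The row of Csf1r lies opposite Hmgxb3 and that of Folr2 opposite Gm10602, so their counts need not come from the mRNA of the named gene. The common leukocyte gene Ptprc summed to 18. Epithelial markers in own rows ranged from 1 count for Scgb1a1, 133 for Krt5 and 535 for Epcam to 896 for Bpifa1 and 1831 for Cyp2f2. The 10 own rows of that list summed to 151 to 308 CPM and were not taken as a check of the labelled tissue. The row opposite Cyp2f2 carried most of the 18384 to 30823 CPM in the 3 rows opposite epithelial genes.

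Beside the 8, 59 rows of 9 lists of myeloid cells and pathways could be tested, 42 own rows and 17 opposite rows. The lists were neutrophil, monocyte and macrophage, mast cell and basophil, eosinophil, dendritic cell, IL-1 pathway, CD300 and inhibitory receptors, metalloproteinases with their inhibitors, and histamine. At day 10 against vehicle edgeR called 1 higher (all rows 3.93%) and 3 lower (3.15%), together 6.78% of the 59 against 7.08% of all rows. At day 10 against day 5 it called 0 higher (all rows 4.66%) and 6 lower (5.49%), together 10.2% against 10.1%. These counts moved with the setting. Leaving out 1 library gave 0 (without day 10 replicate 5, with 9 at an unadjusted p under 0.05) to 11 (without day 10 replicate 1) calls against vehicle and 3 (without day 5 replicate 5 or day 10 replicate 2) to 12 (without day 10 replicate 1) against day 5. The GC correction gave 2 higher and 0 lower against vehicle, and 3 higher and 7 lower against day 5, and edgeR with the CT010467.2 covariate called 0 in both, with 5 and 14 at an unadjusted p under 0.05. It also called 0 in both without day 10 replicates 2, 3 and 5, where the rows with an unadjusted p under 0.05 numbered 6 and 10. At day 5 against vehicle edgeR called 0 of the 59 (87 of all 13181 rows), and 15 had an unadjusted p under 0.05 (2144 of all rows). There DESeq2 called 5 (511 of all rows), limma-voom 3 (284) and the fit of the 8 compared libraries 8 (656). The median log2 fold change of the 59 was -0.04 at day 10 against vehicle, -0.10 at day 10 against day 5 and 0.13 at day 5 against vehicle, beside -0.012, 0.015 and -0.027 for all rows. In the same order the 42 own rows had medians of -0.043, 0.070 and 0.028, and the 17 opposite rows -0.003, -0.23 and 0.24. All tested rows opposite a protein-coding gene had 0.078, -0.083 and 0.17, and those opposite no gene -0.089, 0.051 and -0.14. The part of this wider shift in the myeloid medians was not tested.

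Among mast cell genes, the own rows of Hpgds and Slc18a2 were lower at day 10 while that of Hdc was higher. Hpgds, which makes prostaglandin D, had 86.97 to 105.6 CPM for vehicle and 65.8 to 85.0 at day 5, with no overlap and no call. At day 10 it had 58.8 to 63.8 CPM, again below every vehicle library (log2 fold change -0.61, SE 0.15, edgeR adjusted p 0.0166), and day 10 replicate 1 alone gave -0.58. It stayed called in 6 of the 8 fits that leave out 1 library, all but those without day 10 replicate 2 or 5, and with the GC correction it was -0.28 and not called. Slc18a2, the vesicle transporter that loads histamine and other amines and whose row lies opposite Gm29261, had 155 to 205 CPM for vehicle, 159 to 184 at day 5 and 76.9 to 154 at day 10. It fell against vehicle (-0.69, SE 0.17, 0.0194) and against day 5 (-0.64, SE 0.18, 0.0216), with -0.19 and -0.14 without day 10 replicates 2, 3 and 5. These calls held in 3 and 5 of the 8 fits, and both were lost without day 10 replicate 2 or 5. With the GC correction the difference from vehicle was -0.56 and not called. Hdc, Hpgds and Slc18a2 each act in mast cells, but other cells express them too.

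In the IL-1 pathway, where Il1b itself did not separate the groups, Irak4 and the row opposite Il1rap fell at day 10 against day 5. Irak4, the kinase at the head of receptor signalling, had 373 to 491 CPM for vehicle, and its row lies opposite Twf1. It had 510.3 to 577 CPM at day 5, above every vehicle library, and 242 to 447 at day 10 (-0.79 against day 5, SE 0.15, edgeR adjusted p 0.0033). Gm20319, opposite the receptor subunit Il1rap, had 48.4 to 68.0 CPM for vehicle, 61.5 to 71.2 at day 5 and 30.8 to 64.3 at day 10 (-0.63 against day 5, SE 0.20, 0.0446). Neither row was called against vehicle at either day. Without day 10 replicates 2, 3 and 5 the differences from day 5 were -0.30 and -0.038. The Irak4 call held in all 8 fits that leave out 1 library, and that of Gm20319 in 1, without day 10 replicate 1. Gm20319 was also not called with the GC correction (-0.54). None of the other 9 tested rows of the list passed in any comparison.

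Among inhibitory receptors, Gm40645, which lies opposite Lilrb4a and Gm49339, was lower at day 10 than at day 5. Its vehicle libraries had 11.6 to 20.8 CPM, and it was not called against vehicle. It had 17.1 to 46.3 CPM at day 5 and 4.81 to 17.0 at day 10, without overlap (-1.52, SE 0.35, edgeR adjusted p 0.0079), with -0.77 for day 10 replicate 1 alone, and its call was lost only without day 5 replicate 5, among the 8 fits that leave out 1 library. Lilrb4a is an inhibitory receptor of myeloid cells. Own rows were present for 6 other CD300 family genes, of which Cd300a, Cd300c, Cd300c2, Cd300lb and Cd300ld summed to 0 to 2 counts and Cd300lg to 130. Cd274, the ligand PD-L1, had a log2 fold change of 0.51 at day 10 against vehicle (edgeR adjusted p 0.0865).

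Among the metalloproteinases and their inhibitors, Mmp19 and Syn3, the row opposite Timp3, fell where Mmp9 was higher. The own row of Timp3 did not fall from day 5 to day 10. Its mean CPM was 335 ± 12.5 for vehicle, 255 ± 19.1 at day 5 and 309 ± 40.7 at day 10 (SD, n = 4), and it was not called in any comparison. Mmp19, whose row lies opposite Gm47093 and Tmem198b, had 83.1 to 109 CPM at day 5 and 45.2 to 78.7 at day 10, with no overlap (-0.61, SE 0.18, edgeR adjusted p 0.0276), and stayed called in 3 of the 8 fits, lost without day 5 replicate 5, 6 or 8 or day 10 replicate 2 or 3. Its value was -0.29 without day 10 replicates 2, 3 and 5. The vehicle libraries had 63.0 to 83.2 CPM of Mmp19, which was not called against vehicle. Syn3 had 3282 to 4662 CPM for vehicle, 3935 to 5386 at day 5 and 1229 to 4015 at day 10. It was lower against vehicle (-0.87, SE 0.24, 0.0273) and against day 5 (-1.12, SE 0.24, 0.0051), but day 10 replicate 1 alone gave 0.062 against vehicle and -0.18 against day 5. The difference from day 5 was called in all 8 fits that leave out 1 library, that from vehicle in 2, without vehicle replicate 4 or day 10 replicate 1, and the latter was not called with the GC correction (-0.70). The row opposite the folate receptor Folr2, Gm10602, which also lies opposite Inppl1, was the single higher call of the myeloid lists outside the 8 rows, with 119 to 133 CPM for vehicle and 160 to 242 at day 10 (0.69, SE 0.15, edgeR adjusted p 0.0106), lost only without day 10 replicate 5 among those fits, and it was 0.32 for day 10 replicate 1 alone.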

How the data were processed

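The authors deposited 1 table of read counts per gene, made from nasal libraries with FastQC, Trim Galore, STAR and HTSeq on mm10, per the submitters' processing notes. No source used here gives their versions, the annotation release, the counting mode or the strand setting. With bedtools 2.31.1 and GENCODE M21, a row was taken as opposite a gene when exons on the other strand overlapped by at least 50 bases. The counts of all 12 libraries were fitted in 1 model of group with edgeR 4.0.16 (filterByExpr, TMM, quasi-likelihood F test, Benjamini-Hochberg over 13181 rows, threshold 0.05) in R 4.3.3, with SEs derived from the F statistic. CPM used the scaled library size. Named rows are the 8 members, their partners, up to 4 rows per list and comparison with the smallest p, and the 3 rows nearest in pattern by correlation of log2 CPM (prior count 2). The members and lists were chosen with earlier results of these data known, and the ETS motif after the promoters were read. On simulated counts for day 10 against vehicle (12669 rows), 47.4% of 95 planted 2-fold and 85.3% of 95 planted 4-fold changes were recovered and 4.55% of calls were false. No shift in CT010467.2 share or GC slope, as in day 10 replicates 2, 3 and 5, was simulated. The recovered and false percentages therefore need not hold for the reported calls. Replicate pairs differed by 3.17 to 22.4 times the counting variance. Alternatives were other scalings, filters and tests (DESeq2 1.42.0, limma-voom 3.58.1), the 8 compared libraries alone, a replicate block, the CT010467.2 share as covariate and libraries left out. A GC correction, the row CT010467.2 left out and day 5 replicates 6 and 8 left out were added after seeing the data.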

Additional observations from a re-analysis of the deposited data

Results flagged for a closer look

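For 3 rows all day 5 libraries lay on one side of the vehicle mean and all day 10 libraries on the other. The log2 fold change at day 10 against day 5 was -2.23 for Gm30489 (opposite F13a1), 0.86 for Mmp9 and 1.40 for Cd300lf. Whether the effects at the 2 days differ was not tested apart from this contrast, on which the rows were chosen. In 2 of the 24 groups of 4 libraries checked, 1 library stood apart from the other 3. BE692007 (opposite Ms4a6c) had 68.4 CPM in day 10 replicate 1, a gap of 0.879 of the range of its group, and Mmp9 had 200.5 CPM in vehicle replicate 5, a gap of 0.905, where 0.829 is the critical value. Chance alone singles out about 1 in 20 groups.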

How the results depend on the processing

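The 8 rows gave 486 values under the alternatives, of which 461 moved by less than the spread between replicates, 24 moved by more and 1 called value turned: BE692007 at day 10 against vehicle was 0.11 with the CT010467.2 share as covariate. Of 206 values for the other named rows, 141 stayed called, 64 were no longer called and 1 turned, namely Syn3 at day 10 against vehicle, 0.062 without day 10 replicates 2, 3 and 5. The count of called rows depended strongly on the setting. At day 10 against vehicle, 933 became 423 with the 8 compared libraries alone, 403 with the GC correction (328 higher and 75 lower, from 518 and 415), and by edgeR 0 with the CT010467.2 covariate (500 at an unadjusted p under 0.05) or without day 10 replicates 2, 3 and 5 (912). Leaving out 1 library gave 95 (without day 10 replicate 5) to 2684 (without day 10 replicate 1). At day 5 against vehicle, 87 became 278 with no filter, 135 with the 10 CPM filter, 511 with DESeq2, 284 with limma-voom, 656 with the 8 libraries alone, 370 with the covariate and 6 without day 5 replicates 6 and 8, and 5 (without day 5 replicate 5) to 209 (without vehicle replicate 5) when 1 library was left out. At day 10 against day 5, 1337 became 2 with the covariate, 0 by edgeR without day 10 replicates 2, 3 and 5 (1142 unadjusted), where the lone day 10 library is assumed to vary like the other groups, 243 without day 5 replicates 6 and 8, and 623 to 2689 without 1 library (day 10 replicate 5 and day 10 replicate 1). The 8 rows were chosen on these contrasts, so how often their calls held is a description and no test. Of the called differences of the 8 rows, the 6 at day 10 against day 5 other than Hdc were called in all 8 fits that leave out 1 library. At day 10 against vehicle Gm11505 was called in 7 (lost without day 10 replicate 5) and Gm30489, BE692007 and Mmp9 in 3 each. The cause was not tested. When replicate numbers entered as a block, called rows numbered 1701, 33 and 958. Deviations from the group means correlated at -0.0894 to 0.124 in the 5 pairs with the same number, and at -0.118 to 0.113 in 43 other pairs. These ranges overlapped, but 5 pairs are too few to exclude a pairing, and the labels state none. With the 8 libraries alone, the filter removed Gm11505 in both day 10 comparisons. Rows with under 20 counts per library, such as Gm11505 at day 10, are limited by depth.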
